A study of Mus musculus with 2 samples.

Results

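The cells described here were those of 1 of the 12 cluster tables deposited for a single-cell RNA-seq experiment on the adult mouse dentate gyrus (DG), the table that the authors named NB for neuroblasts. Every cell in that table was a member, which gave 959 of 10804 cells. The WT library contributed 472 of its 5543 cells (8.52%, exact 95% binomial interval 7.79 to 9.28%) and the iKD library 487 of its 5261 cells (9.26%, 8.49 to 10.1%). Both libraries came from mice with a tamoxifen-inducible Cre under the Nestin promoter (NestinCreERT2) and a ROSA-STOP-EYFP reporter. WT mice carried VEGFWT/WT and iKD mice VEGFfloxed, so tamoxifen (TAM) deleted Vegfa in recombined cells of the iKD mice only, and TAM, Cre and the reporter were shared by both groups. Mice were 7 to 10 wk old when TAM was given for 5 d, and tissue was taken 21 d after TAM. Each library was a pool of EYFP+ cells from 5 mice of both sexes, so there was 1 sample per genotype and no comparison between genotypes could be tested. The Nestin promoter drives Cre in neural stem cells, which limits the model to cells that recombined.

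Neuroblasts are the migrating, dividing or newly postmitotic descendants of neural stem cells, known by transcripts such as Dcx, Sox11 and Neurod1. Microglia are the resident macrophages of the brain and are known by the fractalkine receptor Cx3cr1, the ADP receptor P2ry12, Tmem119 and the C1q complement chains. Immediate early genes such as Fos, Egr1 and Dusp1 are transcribed within minutes of a stimulus from promoters that need no new protein, and their products include both activators and inhibitors of the signals that induce them.

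Levels are means over cells of counts per 10,000 unique molecular identifiers (UMIs) of the cell, counted at the 3′ end of transcripts. Ratios are log2 of 2 levels, each with a pseudocount of 0.01, and intervals are 95% and cover counting error only. NB cells had a median of 7117.5 UMIs and 2976.5 genes in WT and 6173 UMIs and 2766 genes in iKD, against medians of 8136 and 7162.5 UMIs in the cells of the other 11 clusters. No barcode was shared by the WT and iKD cells of NB (0, against 9 over all cells), and 0 cells stood in more than 1 table. By Xist and 4 Y-linked transcripts, 61.7% of WT and 71.7% of iKD NB cells scored as female, 32.0% and 19.9% as male, and 0.636% and 0.205% as both.

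The expressed genes went against the cluster's name. All 18 microglia markers were found in NB, with a summed level of 530 in WT and 520 in iKD, and the median marker had a UMI in 99.8% of WT and 99.7% of iKD cells. C1qa, a chain of the complement starter C1q, stood at 73.3 in WT and 75.2 in iKD. Cx3cr1 stood at 46.0 and 41.2, P2ry12 at 32.8 and 33.0, and Tmem119 at 13.3 and 13.1. Every one of these 4 genes was detected in 99.4 to 100% of the cells of each library.

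The 10 neuroblast markers together reached a level of 0.254 in WT and 0.230 in iKD. Dcx, the microtubule protein that defines migrating neuroblasts, Calb2 and Cd24a had 0 UMIs in 959 cells. Taken approximately as 3 over the number of cells, this allows a share of up to 0.313% of cells with a UMI. Sox11, a transcription factor of newborn neurons, had 5 UMIs in WT and 1 in iKD, and Neurod1 had 0 and 1. Prox1, a granule neuron lineage factor, carried most of the list's sum, at 0.220 in WT and 0.202 in iKD. The sums of the 9 neural stem cell markers (0.0808 and 0.139) and the 5 granule neuron markers (0.437 and 0.122) were also under 0.5, and Lsamp and Meg3 carried most of the latter. The cluster is called NB below, after its table, and its cells are microglia-like by the markers.

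**Figure D1:**
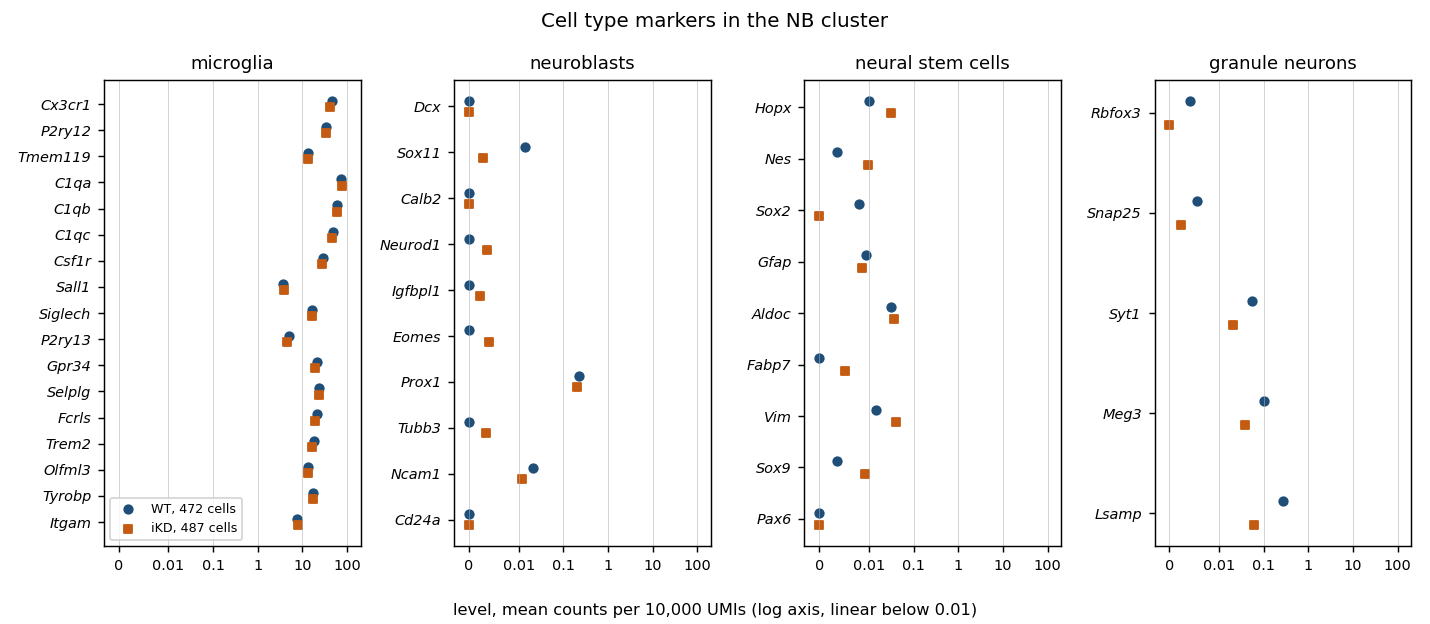
Level of marker genes in NB cells, 17 of them of microglia, in mean counts per 10,000 UMIs on an axis that is logarithmic above 0.01 and linear below it, for WT (circles) and iKD (squares). The lowest microglia marker, Sall1, stood at 3.72 in WT, above the highest neuronal or stem cell marker, Lsamp, at 0.269.

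Markers of other cells were also low. The 7 border macrophage markers summed to 0.0895 in WT and 0.0663 in iKD, with Lyve1, Cd163 and Cbr2 at 0 UMIs in both. Of the 7 monocyte markers, 5 were at 0 UMIs in both libraries, among them Ly6c2 and S100a8. Slc1a3, a glutamate transporter of astrocytes, was the exception in the astrocyte list, at 3.92 and 3.30, while Aqp4, the astrocyte water channel, stood at 0.0134 and 0.0140. Among genes of cell division, Mki67 had 0 UMIs in WT and 6 in iKD, which lay in 0.205% of iKD cells, and Pcna, the DNA polymerase clamp, stood at 0.347 and 0.353.

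The 3 genes given as markers of the cluster varied widely. B2m, the light chain of MHC class I, stood at 8.44 in WT and 8.04 in iKD, under the 9.98 and 9.0 of the other clusters. Lsamp, a neuronal adhesion protein, stood at 0.269 in WT (80 UMIs) and 0.0610 in iKD (18 UMIs), against 0.423 and 0.162 in the pooled other clusters. That pool was carried by IN2, at 7.98 and 5.79, and eNB stood at 0.114 and 0.0497, under NB. Apoe, the lipid carrier of astrocytes and reactive microglia, stood at 5.71 and 3.25, against 3.83 and 4.77, so it was above the pooled cells of the other clusters in WT and below them in iKD. Single clusters ranged widely, and qNSC2 stood at 20.6 and 11.9. None of the 3 was at least 1.5-fold higher in NB than in the other clusters in both libraries.

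The highest levels in NB belonged to Cst3, a secreted protease inhibitor (370 in WT and 386 in iKD), and the nuclear RNA Malat1 (259 and 246). C1qa, Tmsb4x, C1qb, Gm42418, the lysosomal protease Ctsd, C1qc and Cx3cr1 were also among the highest. Of these 9 genes, Gm42418, which overlaps ribosomal RNA sequence, differed most from the other clusters, at 55.4 and 56.8 in NB against 40.9 and 40.5. The microglia list as a whole differed little: its median ratio of NB over the other clusters was 0.14 over 18 genes, beside 0.091 over all genes tested, and its sum in the other clusters was 507 in WT and 488 in iKD. None of the 18 was past 1.5-fold in either direction.

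NB was set apart by genes with lower levels. A gene was tested if its level was at least 0.5 on the higher side in both libraries, and counted if it was at least 1.5-fold apart in the same direction in both. Of 3960 genes tested, 127 were lower in NB than in the other 11 clusters, 3.21% of those tested, and 2 were higher, 0.0505%. The clusters were made from the expression of these same genes, so the counts describe NB and carry no test. With a pseudocount of 1 the lower genes numbered 60, and with scaling by median ratio the higher genes numbered 0. Transcripts of immediate early genes, of inflammatory cytokines and their feedback inhibitors, and of histones made up most of the genes furthest down.

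Promoter sequence is shown for 5 genes, chosen as examples of those lower in NB that hold a motif known from signal-driven promoters. The motif lies in the 250 bases before the start of the gene or the 50 after. Any part of these motifs in the lower levels was not tested. The sequences are from RefSeq on GRCm38.p6, run 5′ to 3′ on the gene's strand and show 40 bases on each side of the match. Capitals mark the motif, the cyclic AMP response element TGACGTCA in the first 4 and a CArG box, the site of serum response factor, in Zfp36. The first is Dusp1, a phosphatase that switches off MAP kinases, on the minus strand of chr17:26508568-26508655. The second is Btg2, an antiproliferative protein, on the minus strand of chr1:134079274-134079361, and the third Ppp1r15a, which restarts translation after stress, on the minus strand of chr7:45526233-45526320. The last 2 are Creb5, a factor of the CREB family, on the plus strand of chr6:53287218-53287305, and Zfp36, which destabilises cytokine mRNAs, on the minus strand of chr7:28379237-28379326.
Dusp1: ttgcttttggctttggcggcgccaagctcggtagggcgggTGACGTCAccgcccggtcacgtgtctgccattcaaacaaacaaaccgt
Btg2: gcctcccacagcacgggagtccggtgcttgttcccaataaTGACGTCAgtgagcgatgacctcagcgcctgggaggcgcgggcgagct
Ppp1r15a: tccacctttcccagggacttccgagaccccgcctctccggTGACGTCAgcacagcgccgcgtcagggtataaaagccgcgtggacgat
Creb5: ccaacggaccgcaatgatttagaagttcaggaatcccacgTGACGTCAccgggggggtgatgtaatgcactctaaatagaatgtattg
Zfp36: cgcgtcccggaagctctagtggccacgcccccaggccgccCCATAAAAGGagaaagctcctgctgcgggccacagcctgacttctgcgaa

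Of the 23 immediate early genes, 20 had a promoter in the RefSeq table. TGACGTCA, which reads the same on both strands, was in 3 of the 20 (15%, exact 95% interval 3.21 to 37.9%), against 131 of the 3187 tested genes with a promoter in the table (4.11%) and 549 of all 27025 genes with a promoter (2.03%). The CArG box was in 2 of the 20, against 45 of the 3187 (1.41%) and 488 of the 27025 (1.81%). A match is a description of the letters in this window. For the 127 genes lower in NB the check was void, because only 79.5% of them had a promoter in the table. The tested genes stood little above this, at 80.5%. Of the 101 lower genes with a promoter, 8 held TGACGTCA and 1 the CArG box, and no reading is drawn from these counts.

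Of 18 immediate early genes tested, 17 were at least 1.5-fold lower in NB in both libraries, beside 3.21% of all genes tested, and the median ratio was −1.97, beside 0.091 over all genes. Fos, a subunit of the transcription factor AP-1, stood at 2.03 in WT and 2.68 in iKD, against 17.8 and 19.9 in the other clusters, 8.03-fold lower on the mean of the 2 ratios. It had a UMI in 35.2% of WT and 39.0% of iKD NB cells, against 93.3% and 92.4% of the other cells. Both libraries thus placed NB far under the other clusters for Fos.

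The other AP-1 genes were lower to different degrees. Junb stood at 3.43 and 4.87 against 16.7 and 16.3, Fosb at 1.08 and 1.32 against 4.43 and 4.70, and Jun at 15.3 and 20.3 against 38.7 and 41.5. Jund stood at 9.75 and 11.9 against 17.5 and 18.9, the smallest ratio of the 17 at −0.76. Rhob, a small GTPase, was the 1 tested member not past the fold, at 12.1 in both libraries against 17.5 and 16.8.

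Zinc finger factors and feedback enzymes of the same list were lower as well. Egr1 stood at 1.65 in WT and 2.52 in iKD against 8.84 and 9.53, and Klf2, a factor of quiescent macrophages and endothelium, at 0.645 and 0.946 against 4.83 and 4.75. Dusp1 stood at 0.419 and 0.773 against 3.71 and 4.03, and Atf3, a stress-induced repressor, at 0.349 and 0.601 against 2.68 and 2.87. Btg2 stood at 5.75 and 7.49 against 25.8 and 25.4, Zfp36 at 2.37 and 3.16 against 11 and 10.6, Ppp1r15a at 0.203 and 0.327 against 1.15 and 1.07, and Ier2, a nuclear growth response protein, at 0.529 and 0.829 against 3.02 and 3.49. In each of these 8 genes the higher NB library lay under the lower of the 2 other values. They had been called as at least 1.5-fold lower in both libraries, so this adds little to the call.

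**Figure D2:**
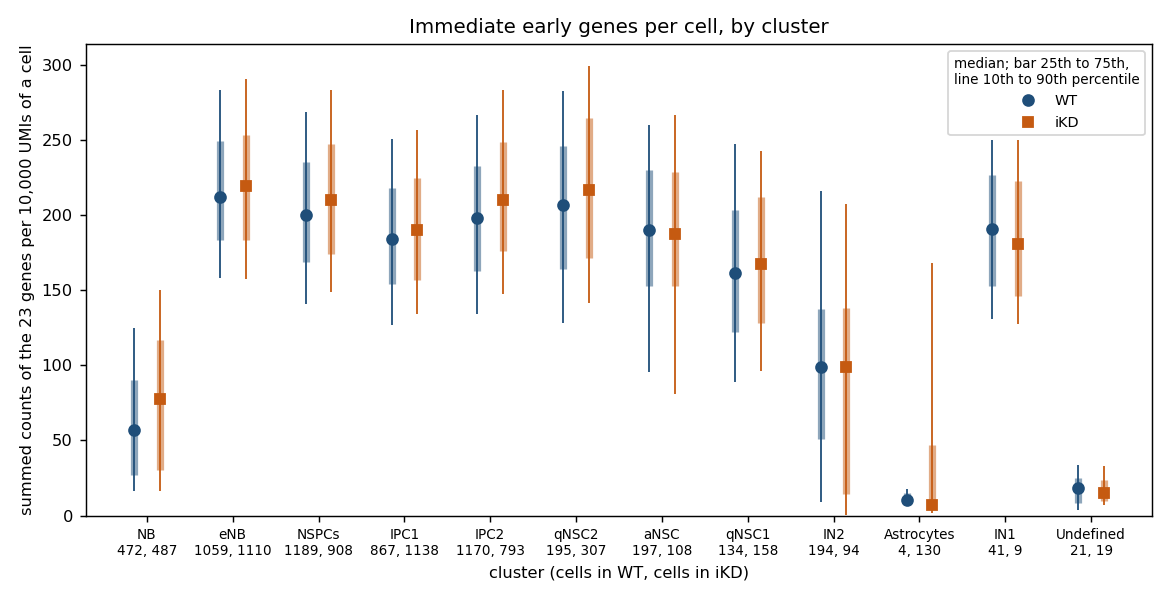
Summed counts of the 23 immediate early genes per 10,000 UMIs of a cell, by cluster, for WT (circles) and iKD (squares), with the median as the point, the 25th to 75th percentile as the bar and the 10th to 90th as the line; cell numbers stand under each name. The NB medians of 56.7 and 77.7 lay under those of every other cluster except the small Astrocytes and Undefined clusters, where they were 10.5 and 7.34, and 18.1 and 14.8.

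Cells of NB were spread widely in this list. After each cell was thinned to 4500 UMIs, which left 443 WT and 414 iKD cells, the summed UMIs of the list ran from 1 to 84 with a median of 26 in WT, and from 2 to 112 with a median of 35 in iKD. In eNB, the cluster named for early neuroblasts, the medians were 96 and 99 and the lowest cells had 31 and 37. Not 1 of the 1054 WT or 1094 iKD cells of eNB lay at or under the NB median of its library (0 and 0), and of the other 11 clusters 0.662% and 2.76% of cells did. Microglia transcripts, thinned in the same way, had medians of 234 and 230 in NB and 220 and 209 in eNB.

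Of 12 NF-kB feedback and cytokine genes tested, 10 were lower in NB, beside 3.21% of all genes tested, with a median ratio of −1.21, beside 0.091. Ccl4 and Ccl3, chemokines of activated microglia, had the largest ratios of the list against the pooled cells: Ccl4 stood at 0.118 in WT and 0.377 in iKD against 2.32 and 1.90, and Ccl3 at 0.114 and 0.179 against 1.05 and 1.06. Those pooled levels were raised by qNSC1, where Ccl4 stood at 33.3 and 21.0 and Ccl3 at 10.3 and 8.67. Against eNB alone the mean ratios were −2.30 for Ccl4 and −1.92 for Ccl3, and that of Socs3 was −2.78. The feedback inhibitors were lower too, Socs3 at 0.174 and 0.225 against 1.26 and 1.28, Nfkbiz at 0.605 and 0.886 against 2.63 and 2.84, and Nfkbia at 1.78 and 1.22 against 3.46 and 2.68. Nfkb1, a subunit of the factor itself, was not, at 2.72 and 2.58 against 2.74 and 2.55.

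Of a list of 10 replication-type histone genes, all 8 tested were lower, beside 3.21% of all genes, with a median of −1.67. This list, like the others, was chosen with earlier results of these data known. The count therefore describes these genes and not histone genes as a class. Hist4h4 stood at 0.0616 and 0.162 against 0.758 and 0.746, and the linker histone gene Hist1h1e at 1.84 and 2.21 against 4.44 and 4.70. These genes belong to near-identical families, so their reads could be split among copies. Thinned to the same depth, the median NB cell had 1 UMI of the list in either library, and the median eNB cell had 4 in WT and 5 in iKD.

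Glucocorticoid targets were divided. Of 8 tested, 5 were lower, beside 3.21% of all genes, with a median of −0.83: Glul, which makes glutamine, stood at 10.4 and 11.1 against 25.3 and 24.1, Sgk1, a kinase, at 4.16 and 3.90 against 8.20 and 7.21, and the clock gene Per1 at 0.335 and 0.346 against 1.01 and 0.916. Fkbp5, the chaperone that restrains the receptor, was not lower, at 6.13 and 3.98 against 5.92 and 3.45.

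Single genes of other lists were lower by at least 1.5-fold in both libraries. Neat1, the RNA that builds paraspeckles, stood at 0.347 and 0.335 against 0.938 and 1.05, Smad7, an inhibitor of TGF-beta signalling, at 1.94 and 1.96 against 3.74 and 3.74, and the complement receptors C3ar1 at 1.40 and 1.30 against 2.75 and 2.71 and C5ar1 at 0.692 and 0.655 against 1.26 and 1.12. Bcl6, a repressor, stood at 0.244 and 0.216 against 1.25 and 1.16, and the noncoding genes Gm32296, Gm15726, Gm34455 and 2010013B24Rik had mean ratios of −3.13, −2.80, −2.33 and −2.31. Creb5 stood at 0.230 and 0.270 against 1.18 and 1.2. Gt(ROSA)26Sor, the transcript of the locus that also holds the EYFP reporter and a gene named after its values were seen, stood at 0.334 in WT and 0.316 in iKD against 1.17 and 0.847.

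The genes higher in NB were few and differed little. AY036118, a noncoding gene near ribosomal RNA repeats, stood at 2.27 in WT and 2.32 in iKD against 1.27 and 1.48. It was higher still in IN2, at 4.25 and 7.92, and in Astrocytes, at 17.2 (26 UMIs) and 5.20. Its span lies within that of Gm42418, on the opposite strand. Oip5os1, a long noncoding RNA also known as Cyrano, stood at 0.935 and 0.840 against 0.552 and 0.553. The next 13 by mean ratio were Gm34589, Tardbp, Madd, Lats1, Rrnad1, St7l, Trim12c, Zfp266, Zfp280c, Rhot1, Zfp397, Zfp207 and Zdhhc6, between 0.66 and 0.49. Endoplasmic reticulum folding genes (median 0.19 over 15 genes) and integrins and adhesion genes (0.24 over 12) lay slightly above the 0.091 of all genes, with the lectin chaperone Canx at 5.32 and 4.82 against 3.78 and 3.54. Ribosomal protein genes (−0.02 over 80), lysosomal genes (0.00 over 14), glycolysis genes (−0.26 over 10) and nuclear oxidative phosphorylation genes (−0.24 over 67) had 0 members past the fold in either direction.

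**Figure D3:**
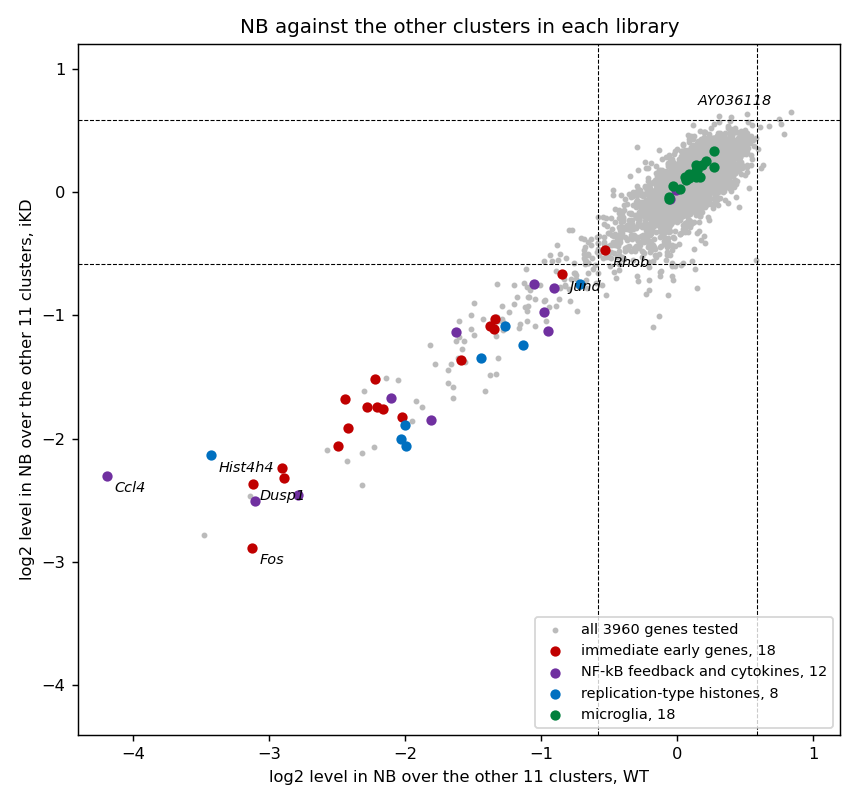
Log2 ratio of the level in NB over that in the other 11 clusters, in WT (horizontal) and iKD (vertical), for the 3960 genes tested, with 4 gene lists in colour and dashed lines at 1.5-fold. Immediate early, NF-kB and histone genes ran down the diagonal to Fos and Ccl4, and the 18 microglia markers stayed within the dashed lines.

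The genes lower in NB were short. Their median span in GENCODE M21 on GRCm38 was 9164.5 bp over 126 genes, against 36233 bp over the 3939 tested genes with a position, and 88.9% against 98.1% were protein-coding. Fos, for example, spans 3384 bp at chr12:85473890-85477273, and Ccl4 2100 bp at chr11:83662584-83664683.

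The difference was present in cells of both sexes, which came from different mice. In WT female, WT male, iKD female and iKD male cells the median ratio of the 18 immediate early genes was −2.10, −2.53, −1.79 and −1.62, and all 18 lay below 0 in each of the 4. Of the 127 lower genes, 126 lay below 0 in all 4 and 105 were past 1.5-fold in all 4. These are the same cells that gave the calls, so they show the spread between subsets and are no independent check. Against single clusters with at least 50 cells in each library, NB was nearest to IPC2 (131 genes past the fold in both libraries), eNB (140) and IPC1 (147), followed by qNSC2 (247), aNSC (259), NSPCs (307), qNSC1 (711) and IN2 (1905). The immediate early gene median ran from −2.06 to −0.95 over these 8 clusters.

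Variation among NB cells was summarised by the Fano factor, the variance over the mean of thinned UMIs, which is 1 for counting noise alone. Its median was 1.19 over 1819 genes with a mean of at least 0.5. Apoe had the highest value, 42.6, with 58.1 in WT and 13.4 in iKD. Cst3 (26.6), Gm42418 (23.3), Malat1 (11.6), Ttr (8.96), Csmd3 (7.85), Jun (7.45), Tmx4 (6.36), the histone variant gene H3f3b (4.96) and Zfp36l1 (4.66) followed. The pooled value of Ttr holds the difference between the libraries, and within them it was 1.06 in WT and 6.51 in iKD. Jun, H3f3b, Zfp36l1 and Tmx4 were also among the 127 genes lower in NB. Ttr was counted among the 127 too, against pooled cells in which the Astrocytes cluster carried its level, and it was not lower than in eNB (0.122 in WT and 9.89 in iKD).

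Apoe was held by few cells. In WT, 20 of 472 NB cells (4.24%, interval 2.61 to 6.47%) had 20 or more counts per 10,000 UMIs and held 69.98% of its UMIs, with a maximum of 338. In iKD, 18 of 487 cells (3.70%, 2.20 to 5.78%) held 48.1%, with a maximum of 104. The limit of 20 was chosen after these values were seen. The median cell had 0 in both libraries, and 43.9% of WT and 42.9% of iKD cells had a UMI. The intervals of the shares of cells with a UMI overlapped (39.3 to 48.5% and 38.5 to 47.4%). By the same limit, 29 of 1059 WT cells of eNB (2.74%) held 38.2% of the Apoe UMIs of that cluster. In iKD, 61 of 1110 eNB cells (5.50%) held 50.6%, so the pattern was not particular to NB.

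iKD was then compared with WT within NB. Vegfa, the targeted gene, had 5 UMIs in 4 of 472 WT cells (0.847%, 0.231 to 2.16%) and 2 UMIs in 2 of 487 iKD cells (0.411%, 0.0498 to 1.48%). In the other 11 clusters 1.60% of WT and 1.13% of iKD cells had a UMI. These counts are too few to check the knockdown in NB. Vegfb stood at 0.545 and 0.538, the VEGF co-receptors Nrp1 at 2.03 and 1.96 and Nrp2 at 0.635 and 0.680, and of the receptors Kdr had 13 UMIs in WT and 21 in iKD (2.54% and 4.11% of cells) and Flt1 3 and 2.

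Few genes differed in level. A level of 0.5 or more in either genotype was reached by 4090 genes. Of these, 10 were at least 1.5-fold higher in iKD (0.244%) and 8 at least 1.5-fold lower (0.196%). The sign was the same in female and male cells for 16 of these 18. Those are the cells that gave the calls, so the shared sign is no independent check. The median ratio over all genes was −0.01, and its 5th and 95th percentiles over genes were −0.27 and 0.27. Among male cells alone, of which there were 151 and 97, 185 genes were higher and 197 lower past the fold. With 1 library per genotype, pooled mice, handling and genotype cannot be told apart.

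Ttr, the thyroid hormone carrier made by the choroid plexus, had by far the largest ratio, 6.07 (5.68 to 6.48). It stood at 0.166 in WT and 11.8 in iKD, with a UMI in 11% and 99.8% of NB cells. In the other 11 clusters 9.78% of WT and 99.7% of iKD cells had a UMI. Their pooled level of 38.0 in iKD was carried by the Astrocytes cluster, which stood at 1031 and held 98531 of 131778 UMIs. The 7 clusters from qNSC1 to eNB stood between 0.112 and 0.174 in WT and between 9.71 and 11.1 in iKD, so NB was not under them in iKD. The other choroid plexus markers moved with it at low levels: Enpp2 had 7 UMIs in WT and 107 in iKD NB cells, Folr1 0 and 9, Igf2 0 and 5, and the 8-gene list summed to 0.191 and 12.3. The part of choroid plexus RNA in this difference was not tested.

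Some immediate early genes were higher in iKD than in WT within NB. Of 17 tested, 4 were at least 1.5-fold higher and 0 were lower past it, beside 0.244% of all genes in the upward direction, 16 lay above 0, and the median ratio was 0.39, beside −0.01 over all genes. Dusp1 had a ratio of 0.87 (0.56 to 1.18), Atf3 0.77 (0.43 to 1.11), Ier2 0.64 (0.35 to 0.93) and Egr1 0.61 (0.45 to 0.77). The list's median was 0.22 in female and 0.77 in male cells, and 0.024 in the other 11 clusters. Akap7, a kinase anchor (0.84), Elp4 (0.72), Eya4 (0.62) and Ssbp4 (0.60) were past the fold as well, and Adamts1, a secreted protease, had 0.82 over all cells but −0.21 in female cells, with 7 UMIs in WT and 65 in iKD male cells.

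Among genes lower in iKD, Ddit4, an inhibitor of mTORC1, stood at 1.10 in WT and 0.574 in iKD, a ratio of −0.93 (−1.20 to −0.67). The ratio was −0.27 (−0.60 to 0.065) in female and −1.94 (−2.60 to −1.33) in male cells. Fkbp5 stood at 6.13 and 3.98 with a ratio of −0.62, but at 3.99 and 4.26 in female cells (0.094, −0.040 to 0.23) and at 10.1 and 3.05 in male cells (−1.73, −1.97 to −1.50). Both are glucocorticoid targets. That list had a median of −0.22 over 6 genes tested, with 2 members past the fold. Its median was 0.040 in female and −0.64 in male cells. In the other 11 clusters the ratios were −0.81 for Ddit4 and −0.78 for Fkbp5, and the list's median was −0.27. These falls were therefore not particular to NB. Male cells made up 32.0% of WT and 19.9% of iKD NB cells.

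Apoe had a ratio of −0.81 (−0.93 to −0.69), with −1.06 in female and −0.91 in male cells. Without the 20 WT and 18 iKD cells at 20 or more, it stood at 1.55 in WT and 1.66 in iKD, and the ratio was 0.095. In the other 11 clusters the ratio was 0.32. Gm2245 (−0.69), Slc46a1, a folate and cyclic dinucleotide transporter (−0.65), the chaperone Fkbp4 (−0.63), Herc6 (−0.62) and Phtf2 (−0.60) completed the 8, with levels in WT between 0.567 and 0.721. After thinning to 4500 UMIs these ratios were, in the same order, −0.58, −0.30, −0.46, −0.80 and −0.28. Of them only Herc6 was then past the fold. Ccdc58 (−0.58) and Erh (−0.58) lay just outside the fold.

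**Figure D4:**
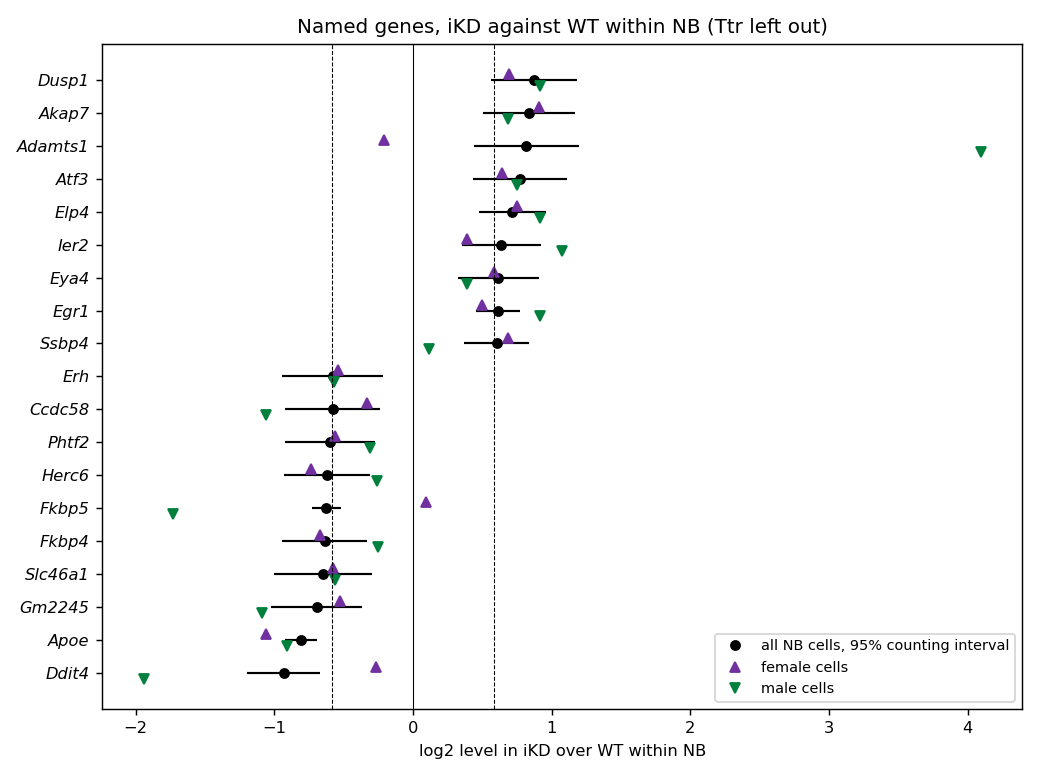
Log2 ratio of iKD over WT within NB for the 10 lowest and 10 highest genes with Ttr left out, with 95% counting intervals for all NB cells, female cells as upward and male cells as downward triangles, and dashed lines at 1.5-fold. Fkbp5 and Adamts1 differed in sign between female and male cells.

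The study drew a group of cell-substrate junction genes from those that differed between these same libraries in its stem cell and progenitor clusters, so the group is no independent evidence of a direction. Over 6 of its genes the median ratio within NB was −0.14, and it was 0.061 in female and −0.36 in male cells. Over the 5 genes tested, without Enpp2, these medians were −0.15, 0.053 and −0.50. Hspa8, a constitutive chaperone, stood at 7.32 in WT and 5.77 in iKD (−0.34, −0.43 to −0.25), and Trem2, the lipid receptor of microglia, at 18.4 and 15.99 (−0.20, −0.26 to −0.15). Pik3r1, the regulatory subunit of PI3 kinase, stood at 5.10 and 4.68 (−0.12, −0.22 to −0.020) and the phosphatase gene Ptprj at 6.72 and 6.04 (−0.15, −0.24 to −0.064). Ptk2b, a focal adhesion kinase, stood at 1.51 in both libraries, with an interval from −0.18 to 0.18. Enpp2, which makes lysophosphatidic acid and is also a choroid plexus marker, was under the level needed, at 0.0227 and 0.380. Of the 5 tested, 0 were past 1.5-fold, beside 0.244% of all genes higher and 0.196% lower. The intervals of 4 of the 5 lay below 0, as did those of 401 of the 4090 genes. In female and male cells taken apart, only 1 of the 5, Hspa8, lay below 0 in both. Pik3r1 had a ratio of 0.068 in female and −0.50 in male cells, Ptprj 0.053 and −0.63, and Trem2 −0.26 and 0.057.

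The microglia markers differed little between genotypes, with 0 of 18 past the fold and a median of −0.02. Among 11 genes of disease-associated microglia tested, Apoe was the 1 past the fold, and Cd63, a lysosomal tetraspanin, stood at 2.63 in WT and 1.80 in iKD (−0.54, −0.70 to −0.39), with −0.52 in female and −0.67 in male cells, and Cd9 had a ratio of −0.22. Lysosomal genes had a median of 0.03 over 14, complement genes 0.04 over 9, MHC genes −0.07 over 5 and ribosomal protein genes 0.06 over 80, each with 0 members past the fold. Heat shock and chaperone genes had a median of −0.19 over 9 and endoplasmic reticulum folding genes −0.13 over 15, also with 0 past the fold.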

How the data were processed

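EYFP+ cells of the DG were profiled with 10x 3′ chemistry in 1 WT and 1 iKD library, each a pool of 5 mice. The authors used Cell Ranger 7.0.1 and Seurat 4.1.1, and their methods state filters at 2000 and 5000 genes and 2% mitochondrial reads. Under 2000 genes were nonetheless detected in 56 of the 959 NB cells. The submitters' processing notes also list CASAVA 1.8.2, HISAT2 2.0.6, Subread, featureCounts and the build GRCh38, although the cells are from mice; no mouse build is given in the sources used here. The deposited values were natural log values, ln(1 + counts per 10000 UMIs), from which whole UMI counts were recovered for 100% of 32261786 values above 0 (tolerance 0.001).

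Levels, ratios and intervals were computed in Python 3.11.15 (pandas 2.3.3, scipy 1.17.1, numpy 2.4.6) by code that was tested on simulated data. Intervals are exact Poisson or binomial, and the limit for genes at 0 UMIs in all NB cells is 3 over the number of cells. Groups came from the sample labels. Named genes were the 15 lowest and 15 highest for NB against the other clusters and the 10 lowest and 10 highest for iKD against WT, with genes of the lists. Cells and lists were chosen with earlier results of these data known. Alternatives were another pseudocount, scaling, level filter, summed UMIs, thinning, reference clusters, and female or male cells. Doublets were not called again, and cells with transcripts of both sexes were kept. With 1 library per genotype no p-value was computed. Values of 1 microglia marker are not reported here, and the list's counts and sums include it.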

Additional observations from a re-analysis of the deposited data

Results flagged for a closer look

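Ptk2b, the focal adhesion kinase gene among the junction genes, differed in direction between the sexes within NB. Its log2 ratio of iKD over WT was 0.38 (95% counting interval 0.15 to 0.62) in female cells and −0.87 (−1.31 to −0.45) in male cells, around 0.00 in all cells together. The difference between the sexes was not tested, since each library held 1 pool of mice.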

How the results depend on the processing

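No paired analysis was possible because each genotype had 1 library, and no library could be left out for the same reason. The count of genes lower in NB, 127, was 60 with a pseudocount of 1, 273 with a level filter of 0.1 and 815 with none. The count higher, 2, was 0 with a pseudocount of 1 and with scaling by median ratio, 15 and 60 with those filters, 5 in female and 4 in male cells. The immediate early gene median was −1.34 with a pseudocount of 1. Within NB, genes higher in iKD, 10 in number, became 19 in female and 185 in male cells, 20 after thinning to 4500 UMIs, 1 with a pseudocount of 1, and 185 and 1207 with the level filter of 0.1 and with none. Genes lower in iKD, 8 in number, became 14, 197, 1, 170 and 1242 under the same settings other than thinning, and 16 when female and male ratios were averaged. The junction gene median over 6 genes, Enpp2 among them, turned to 0.061 in female cells and was −0.36 in male cells. Fkbp5 (0.094) and Adamts1 (−0.21) turned direction in female cells, and Apoe (0.095) without the cells at 20 or more counts. The share of cells with Vegfa was 0% in WT after thinning and 0% in iKD male cells. The cause of these changes was not tested. The splits by sex for NB against the other clusters, the average of the sex ratios and the removal of Apoe cells were chosen after seeing the data. Of all comparisons of a main result with an alternative, 35 moved little, 25 moved further and 1 turned direction. For named genes these numbers were 181, 59 and 0 for NB against the rest, and 101, 37 and 3 for iKD against WT. The 101 include Slc46a1 and Phtf2, whose ratios went from −0.65 and −0.60 to −0.30 and −0.28 after thinning. Counting error limits genes near the level of 0.5 and the values from the 97 male iKD cells. The pooled reference can be carried by a small cluster, as for Ttr, Lsamp, Ccl3 and Ccl4, while the counts of lower and higher genes were 137 and 3 against eNB alone.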
